A study of Mus musculus with 16 samples.

Results

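The genes described here are 33 hair bundle and mechanotransduction genes, most of them known as deafness genes, taken by a list of gene symbols from the expression files of neonatal mouse cochlea. They are 33 of 47729 genes with values, and 33 of 33 were among the 16994 genes that passed the filter on low values. They were ordered by role into 6 unconventional myosins, 5 Usher scaffold and link genes, 5 genes of the mechanotransduction channel, 8 genes of the actin core, tip and rootlet, 4 genes of the bundle surface and membrane, and 5 other genes.

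Cochlear hair cells carry on their apical surface a bundle of actin-filled stereocilia that stand in rows of graded height and are joined by extracellular links. Deflection of the bundle pulls on the tip links and opens the mechanotransduction channel, in which the TMC proteins work together with LHFPL5, TMIE and CIB2. Myosins carry cargo along the actin core, Usher proteins anchor the links, and loss of many of these proteins causes deafness in mice and humans. Supporting cells surround the hair cells and do not carry a sensory hair bundle.

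The libraries came from P4 cochleae of RiboTag mice, in which Cre recombinase makes ribosomes carry an HA-tagged Rpl22 so that mRNA on them can be recovered by immunoprecipitation (IP). Control mice carried GLAST CreERT/+ and Rpl22 HA/+, and DTR mice carried both of these alleles and in addition Lgr5 DTR-EGFP/+. According to the study's methods both received diphtheria toxin (DT) and tamoxifen at P1, whereas the labels list control samples as not treated. Lateral wall, spiral ganglia and Reissner's membrane had been dissected away. The input was 5% of a homogenate and the IP used the other 95%, so that 8 pools of cochleae from several mice gave 16 libraries, with 4 libraries in each combination of genotype (control or DTR) and preparation (input or IP). The CreERT allele is driven by GLAST (Slc1a3), which marks inner phalangeal and greater epithelial ridge cells at this age, and the DT receptor by Lgr5, so damage here means ablation of Lgr5+ supporting cells. Input is the RNA of the whole dissected tissue, hair cells included. Replicates were pools of animals, so p-values measure the spread between pools.

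Reads counted on genes ranged from 28089836 to 41966310 per library, and a count of 3 reads corresponded to 0.0715 to 0.107 CPM (counts scaled to a common library total), a limit that covers counting error only. Values are CPM as deposited, in the order of replicates 1 to 4 where 4 values are given. Log2 fold changes (LFC) and their standard errors (SE) came from limma on quantile-normalized log2(CPM + 0.5), a scale that understates the change of low genes. A gene was called at a two-sided Benjamini-Hochberg adjusted p under 0.05 over 16994 genes. A stricter call also needed an absolute LFC of at least 1 and a separation above 1.5, defined as the minimum of the higher group over the maximum of the lower group after raising anything below 1.08 CPM to that floor. Lgr5, which drives the DT receptor, stood at 36.6 ± 3.99 CPM (SD, n = 4) in control IP and 9.38 ± 1.40 in DTR IP. The DTR allele is a knock-in at Lgr5 that control mice did not carry. Effects of the allele and of cell loss therefore cannot be told apart, for the Lgr5 level or for any other difference between DTR and control. Below, the words after damage stand for DTR compared with control. Slc1a3, which drives Cre, was not enriched in IP and was below input in 8 of 8 pools, with control pools at 281 ± 14.3 CPM in input against 236 ± 21.9 in IP and DTR pools at 271 ± 19.8 against 215 ± 18.4 CPM. Its LFC of IP over input was -0.20 in control pools (adjusted p = 0.10, limma), which was called without quantile normalization, with median centring and without control IP replicate 4 (adjusted p 0.036 to 0.048). In DTR pools it was -0.27 (adjusted p = 0.030, limma), which was lost with only the compared groups and without DTR input replicate 1 or 2 or DTR IP replicate 2 or 3 (adjusted p 0.061 to 0.089). The neuronal markers varied within groups, from 174 to 786 CPM in sum over 7 genes in control input and from 87.7 to 668 CPM in DTR input.

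Promoters are shown for the genes with the lowest IP level relative to input, Strc and Lhfpl5, and for those with the largest fall in IP after damage, Tmprss3 and Smpx. The sequences are those of RefSeq on GRCm38.p6, 250 bases before to 50 bases after a start, read 5′ to 3′ on the gene's strand, and 27 of the 33 genes had an entry (for Tmprss3, the upstream of its 2 starts is shown). Capitals mark the E-box CAGNTG, which reads on the other strand as CANCTG and which basic helix-loop-helix factors such as ATOH1 bind, or the AT-rich homeodomain core TAATTA, which is its own reverse complement. The windows lie at chr2:121380891-121381190 for Strc, chr17:28575469-28575768 for Lhfpl5, chr17:31198925-31199224 for Tmprss3 and chrX:157698723-157699022 for Smpx, with Strc and Tmprss3 on the minus strand and Lhfpl5 and Smpx on the plus strand.
Strc: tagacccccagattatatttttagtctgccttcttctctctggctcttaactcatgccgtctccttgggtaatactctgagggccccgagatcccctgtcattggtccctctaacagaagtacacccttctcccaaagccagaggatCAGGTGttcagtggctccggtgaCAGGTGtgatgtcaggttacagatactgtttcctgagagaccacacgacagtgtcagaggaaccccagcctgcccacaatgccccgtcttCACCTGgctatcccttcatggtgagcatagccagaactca
Lhfpl5: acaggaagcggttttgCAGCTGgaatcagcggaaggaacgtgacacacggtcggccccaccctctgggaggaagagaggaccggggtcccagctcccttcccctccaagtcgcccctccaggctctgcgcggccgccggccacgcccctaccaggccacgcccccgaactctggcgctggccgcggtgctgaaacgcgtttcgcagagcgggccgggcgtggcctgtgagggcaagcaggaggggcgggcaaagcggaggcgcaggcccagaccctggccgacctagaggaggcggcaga
Tmprss3: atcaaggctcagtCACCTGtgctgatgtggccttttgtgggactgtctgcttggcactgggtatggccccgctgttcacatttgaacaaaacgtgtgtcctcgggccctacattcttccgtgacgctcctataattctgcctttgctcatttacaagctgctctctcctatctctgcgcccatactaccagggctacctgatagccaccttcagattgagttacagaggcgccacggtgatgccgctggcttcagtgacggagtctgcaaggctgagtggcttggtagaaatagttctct
Smpx: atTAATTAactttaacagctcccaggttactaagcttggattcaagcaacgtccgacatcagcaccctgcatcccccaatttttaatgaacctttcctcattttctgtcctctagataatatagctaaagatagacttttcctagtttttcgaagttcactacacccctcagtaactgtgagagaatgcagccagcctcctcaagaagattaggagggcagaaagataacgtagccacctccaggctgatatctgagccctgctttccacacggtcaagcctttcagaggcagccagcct
The Strc window holds 3 E-boxes, the Lhfpl5 and Tmprss3 windows hold 1 each, and the Smpx window holds 1 TAATTA and no E-box. Over the 36 promoters of the 27 genes, 58.3% held an E-box, beside 51.4% of 32851 mouse promoters of the same length. TAATTA was in 4 of the 36 (11.1%) and in 5.29% of all. The X-box half-site GTTGCC, which reads on the other strand as GGCAAC, a sequence known from RFX factors, was in 4 of the 36 (11.1%) and in 12.5% of all. The motifs do not overlap in their letters, and a match is a description of the window only.

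Per kb of exon the genes spanned a wide range in control input. Pls1, which encodes the actin crosslinker plastin 1, was highest at 74.0 ± 8.61 CPM per kb (SD, n = 4), followed by Cib2 at 66.7 ± 8.95, and their ranges of mean ± SD met. Rdx, which encodes the membrane-actin linker radixin, stood at 49.4 ± 4.60 CPM per kb. Below it came Stard10 at 36.1 ± 3.68, Ush1c at 31.2 ± 5.17, Tmprss3 at 27.9 ± 3.72, Myo6 at 26.7 ± 2.54 and Smpx at 24.4 ± 3.19, a series in which neighbours lay within each other's spread. The lowest genes were Adgrv1 at 0.334 ± 0.017, Myo15 at 0.372 ± 0.134 and Myo3a at 0.481 ± 0.194 CPM per kb. Exon lengths were those of GENCODE M21, and reads of a library that prefers part of a long transcript are not spread evenly over such lengths.

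**Figure D1:**
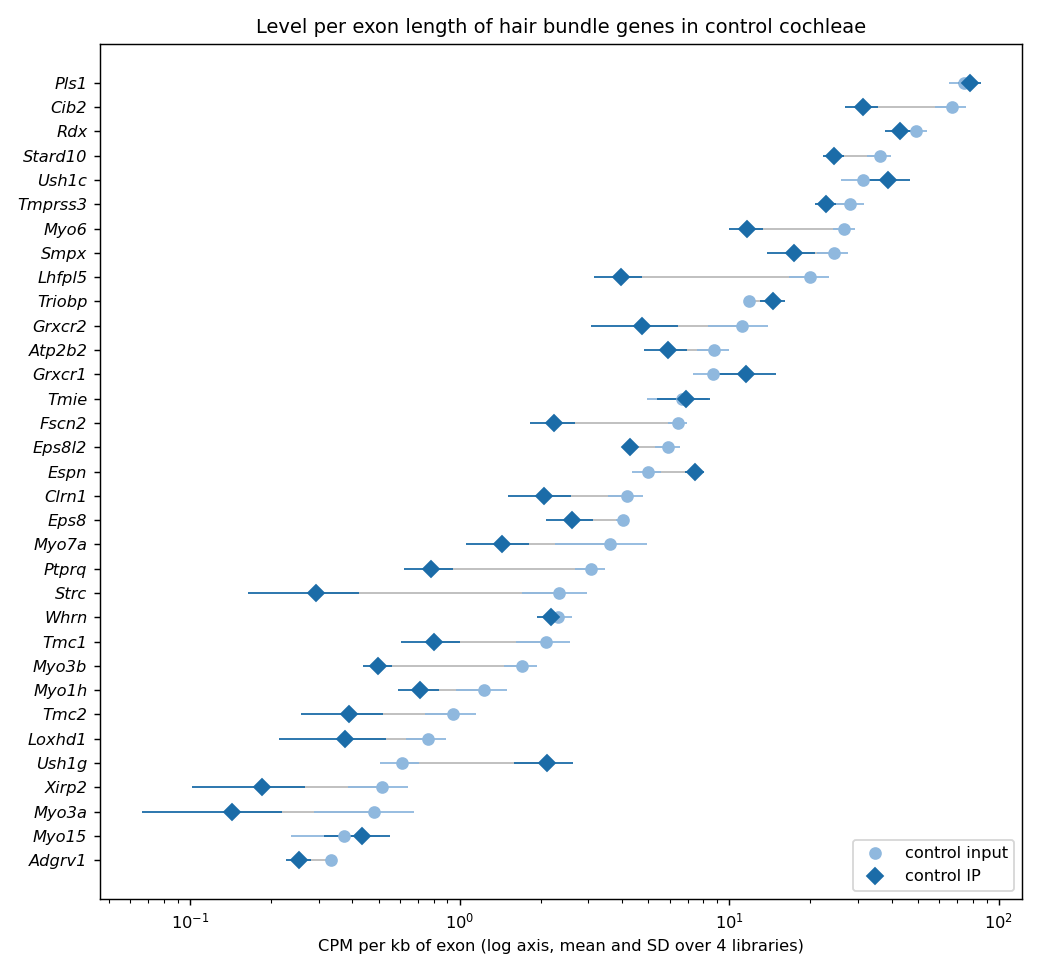
Level of each of the 33 genes in control cochleae, as CPM per kb of exon on a log axis, with circles for input and diamonds for IP, each the mean and SD over 4 libraries. Pls1 and Cib2 lead in input at 74.0 and 66.7 CPM per kb, and the widest gaps are those of Strc, Lhfpl5 and Ptprq among genes higher in input and of Ush1g among genes higher in IP.

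Control IP was compared with control input to ask which of these genes were high or low in ribosome IP relative to the whole tissue. The share of IP RNA that came from cells without Cre was not measured. Most of the 33 genes were depleted in IP. The most depleted were Strc, Lhfpl5, Ptprq and Myo3b, which encode the top connector protein stereocilin, a channel subunit, a shaft connector phosphatase and a stereocilia tip myosin. Of 33 genes, 24 were called (72.7%, beside 39.9% of all 16994 genes). Of these, 21 were lower in IP (20.7% of all genes) and 3, Ush1g, Espn and Triobp, were higher (19.3% of all genes). The stricter call was met by 8 lower genes (3.56% of all genes) and by Ush1g alone among higher genes (4.12%). The median LFC of the 33 genes was -0.60, against -0.0012 over all genes tested. The CPM of the groups did not overlap for 24 of the 33 genes (38.7% of all genes). In bulk samples of this kind, fewer cells of a type and less RNA per cell cannot be told apart.

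**Figure D2:**
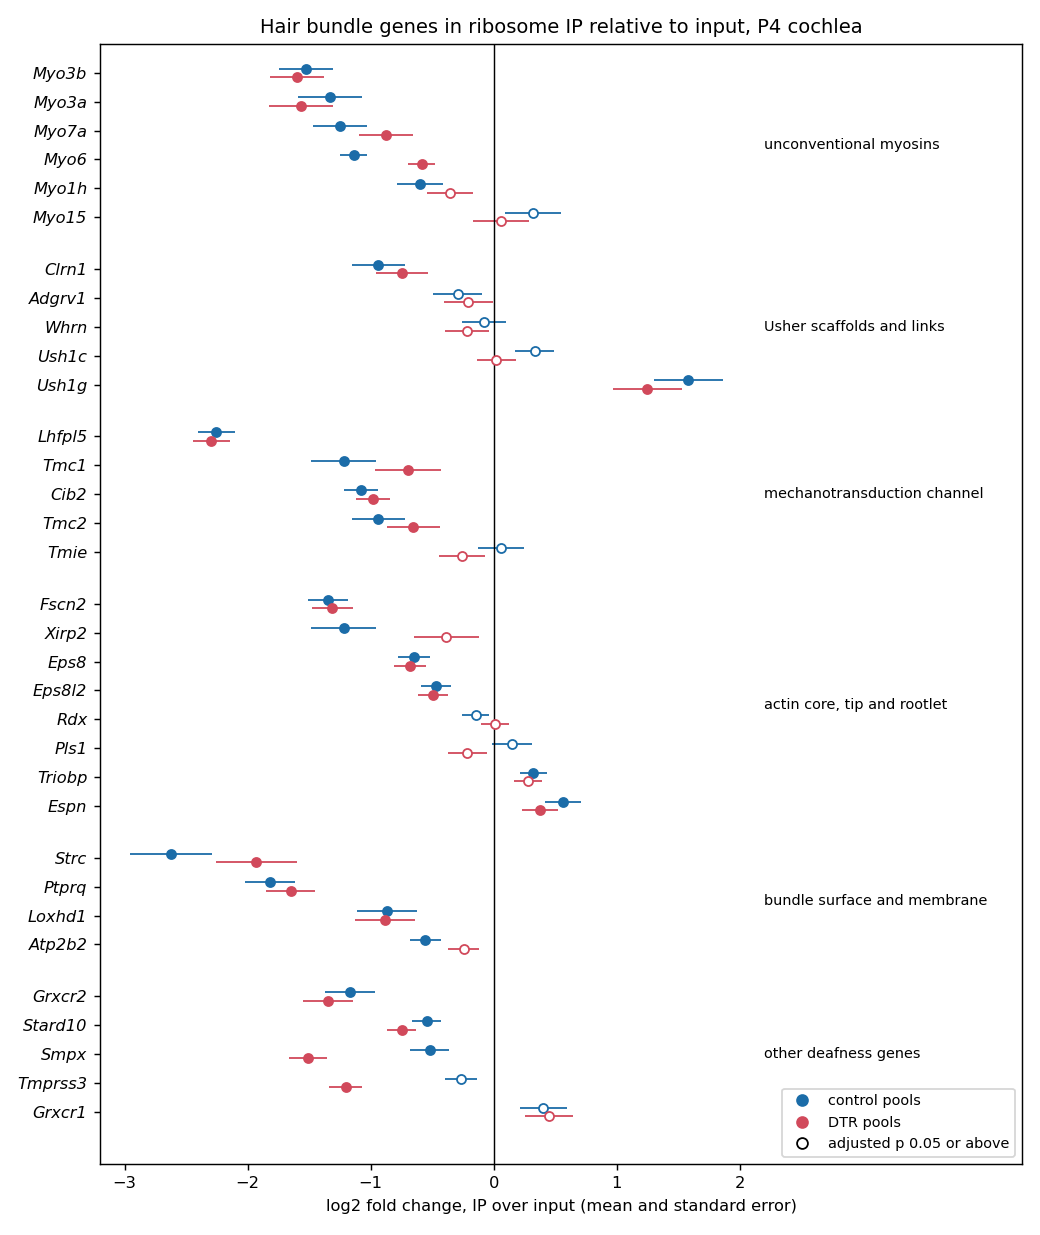
LFC of IP over input with its SE (4 libraries against 4) for each of the 33 genes, in control pools (blue) and DTR pools (red), grouped by role, with open points for an adjusted p of 0.05 or above. Most points lie left of 0, down to -2.62 for Strc in control pools, and Ush1g lies farthest to the right at 1.58.

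Of the 6 unconventional myosins, 5 were lower in control IP and none was higher. Myo3b read 12.1, 11, 14.3 and 10.5 CPM in control input and 3.74, 3.35, 3.97 and 3.01 CPM in control IP. The groups did not overlap, and the IP of each pool held 27.8% to 30.8% of its input level (LFC -1.53, SE 0.22, adjusted p = 2.1e-05, limma). Its paralog Myo3a, a class III myosin that likewise moves to stereocilia tips, read 2.57, 2.93, 6 and 3.78 CPM in input and 1.5, 1.80, 0.529 and 0.719 CPM in IP. The groups were apart but the IP values rested on 18 to 62 reads (LFC -1.33, SE 0.26, adjusted p = 4.9e-04, limma). Myo7a, the Usher motor at the upper tip-link density, fell from 30.9 ± 11.6 to 12.2 ± 3.19 CPM (LFC -1.25, SE 0.22, adjusted p = 1.9e-04, limma). Myo6, which moves toward the base of the stereocilia, fell from 323 ± 30.6 to 141 ± 20.7 CPM (LFC -1.14, SE 0.11, adjusted p = 2.5e-07, limma). Myo1h was lower by a smaller step, 7.31 ± 1.54 in input and 4.22 ± 0.734 CPM in IP (LFC -0.60, adjusted p = 0.015, limma), and this call was lost without control input replicate 4 or control IP replicate 1 (adjusted p 0.057 to 0.064). Myo15, the motor that delivers whirlin and EPS8 to stereocilia tips, was not called, with 4.74 ± 1.71 CPM in input and 5.51 ± 1.5 in IP.

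The Usher scaffold and link genes did not share a direction. Ush1g, which encodes the scaffold SANS, read 1.88, 1.6, 2.22 and 2.33 CPM in control input and 6.31, 5.67, 9.49 and 6.38 CPM in control IP. No IP library reached down to the input range, and Ush1g was the gene most raised in IP of the 33, at 274% to 427% of input over the 4 pools (LFC 1.58, SE 0.28, adjusted p = 1.9e-04, limma). Clrn1, which encodes the membrane protein clarin 1, read 18.9, 17.1, 14.5 and 13.7 CPM in input and 10.5, 8.15, 7.67 and 5.36 in IP, with no overlap (LFC -0.94, SE 0.21, adjusted p = 0.0018, limma). Ush1c, which encodes the scaffold harmonin, stood at 120 ± 19.9 CPM in input and 150 ± 30.4 in IP and was called higher only with the pool as a block (LFC 0.33, adjusted p = 0.046, against 0.11 without it). Whrn, which encodes the scaffold whirlin, and the ankle-link receptor gene Adgrv1 were not called, at 17.1 ± 2.16 and 8.32 ± 0.425 CPM in input and 16 ± 1.74 and 6.31 ± 0.667 in IP.

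Of the 5 mechanotransduction channel genes, 4 were lower in control IP. Lhfpl5, which encodes the subunit that couples the channel to the tip link, read 41.5, 42.2, 59.0 and 48.1 CPM in input and 8.73, 8.99, 12.2 and 7.78 in IP. Its IP level was 16.2% to 21.3% of input in each pool, and the lowest input library was more than 3-fold above the highest IP library (separation 3.28, LFC -2.25, SE 0.15, adjusted p = 2.5e-09, limma). The pore genes Tmc1 and Tmc2 were both depleted. Tmc1 read 14.3, 10.5, 17.4 and 17.9 CPM in input and 3.92, 6.05, 7.38 and 5.79 in IP, with no overlap (LFC -1.22, SE 0.27, adjusted p = 0.0013, limma). Tmc2, which is known as the TMC gene used early in postnatal life, was lower than Tmc1 in CPM, at 3.04 ± 0.654 in input and 1.25 ± 0.417 in IP (LFC -0.94, adjusted p = 0.0019, limma). Cib2, which encodes a calcium-binding subunit, fell from 95.6 ± 12.8 to 44.8 ± 6.21 CPM (LFC -1.08, adjusted p = 7.3e-06, limma). Tmie was the exception, with 16.9, 16.5, 27.8 and 21.1 CPM in input and 17.3, 19.2, 28.2 and 21.0 in IP, values that overlapped throughout.

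The 8 actin core, tip and rootlet genes held 4 lower and 2 higher genes. Fscn2, which encodes the actin crosslinker fascin 2, read 12.6, 14.8, 14.2 and 12.7 CPM in input and 4.75, 4.74, 3.62 and 5.82 in IP (LFC -1.35, SE 0.16, adjusted p = 3.7e-06, limma). Xirp2, which encodes an actin-binding protein, read 4.29, 6.62, 7.98 and 5.77 CPM in input and 1.29, 2.74, 3.32 and 1.47 in IP (LFC -1.22, SE 0.27, adjusted p = 0.0012, limma). Neither gene overlapped between groups. Eps8, which encodes an actin regulator at stereocilia tips, and its relative Eps8l2 were lower by LFCs of -0.65 and -0.47 (adjusted p 7.4e-04 and 0.0045, limma). In the opposite direction, Espn, which encodes the actin bundler espin, read 36.5, 39.2, 48.4 and 40.8 CPM in input and 57.3, 57.3, 64.3 and 67.3 in IP. Each Espn IP library was above every input library (LFC 0.56, SE 0.15, adjusted p = 0.0048, limma). Triobp, which encodes the rootlet actin bundler, read 145, 141, 148 and 146 CPM in input and 200, 192, 160 and 165 in IP (LFC 0.32, SE 0.11, adjusted p = 0.026, limma). The Triobp groups did not overlap, but the call was lost without control input replicate 1 or 2 or control IP replicate 1 or 2 (adjusted p 0.061 to 0.086). Pls1 and Rdx were not called, at 288 ± 33.5 and 229 ± 21.4 CPM in input and 304 ± 28.8 and 199 ± 22.8 in IP.

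All 4 bundle surface and membrane genes were lower in control IP. Strc read 11.2, 11.4, 16.6 and 19.1 CPM in input and 2.15, 2.82, 1.26 and 1.08 in IP. This was the most negative LFC of the 33 genes (LFC -2.62, SE 0.33, adjusted p = 5.4e-06, limma), and the IP level ranged from 5.64% to 24.8% of input over the pools, on 33 to 97 reads. Ptprq read 24.6, 19.8, 26.1 and 21.4 CPM in input and 5.11, 5.79, 7.64 and 4.97 in IP, again with no overlap (LFC -1.82, SE 0.20, adjusted p = 1.2e-06, limma). Loxhd1, which encodes a stereociliary membrane-associated protein, and Atp2b2, the plasma membrane calcium pump of the bundle, were lower by LFCs of -0.86 and -0.55 (adjusted p 0.0087 and 0.0014, limma).

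Of the 5 other genes, 3 were lower in control IP. Grxcr2, a cysteine-rich protein gene needed for stereocilia shape, read 17.6, 18.4, 29.6 and 23.2 CPM in input and 8.4, 7.19, 14.5 and 7.94 in IP (LFC -1.17, SE 0.21, adjusted p = 1.7e-04, limma). Stard10, which encodes a lipid-transfer protein, read 81.0, 84.0, 101 and 83.8 CPM in input and 57.1, 52.9, 64.1 and 62.4 in IP (LFC -0.54, SE 0.12, adjusted p = 0.0012, limma). Neither overlapped between groups. Smpx, which encodes a small cytoskeletal protein, was lower with overlapping groups (LFC -0.52, adjusted p = 0.013, and 0.050 without control IP replicate 2). Grxcr1 and Tmprss3 were called with the pool as a block and not without it, Grxcr1 higher (LFC 0.40, adjusted p = 0.031, against 0.11, or 0.048 without control IP replicate 4) and Tmprss3, which encodes a transmembrane serine protease, lower (LFC -0.27, adjusted p = 0.023, against 0.12).

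Marker levels of several cell types moved with this comparison. Of 16 hair cell identity genes tested, 13 were lower and 2, Atoh1 among them, were higher in control IP, with a median LFC of -1.24. The summed level of 17 such genes ranged from 689 to 866 CPM in control input and from 213 to 298 CPM in control IP. These sums include Calb2, at 291, 244, 133 and 111 CPM in control input, and Pvalb, at 121, 96.5, 44.4 and 39.2. Both fell from replicate 1 to 4, as the neuronal gene Nefl did (273, 244, 66.1 and 56.2 CPM). All of these were chosen after their values were seen. The part of neurons in the sums here and below was not tested. Cabp2 was at 0 in every library, and the hair cell transcription factor gene Pou4f3 was detected in all of them, at 12.2 to 15.1 CPM in control input and 5.17 to 7.35 in control IP. Atoh1, the transcription factor that starts hair cell formation, read 5.62, 5.63, 8.87 and 6.96 CPM in control input and 9.60, 11.6, 19.0 and 10.2 in control IP (LFC 0.86, adjusted p = 0.0083, limma). Lower in control IP were also 6 of 6 macrophage, 4 of 5 endothelial, 4 of 5 Schwann cell, 3 of 7 neuronal and 3 of 6 mesenchymal genes, with 0 higher in each list. Of 7 Deiters and pillar cell genes 3 were lower and 2 higher, and of 5 inner phalangeal and border cell genes 2 were lower and 2 higher (median LFC -0.20). The part of these lists in the depletion of the bundle genes was not tested.

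DTR IP was compared with DTR input to ask the same of damaged cochleae, in pools that share no library with the control pools. Of 33 genes, 21 were called (39.2% of all genes), with 19 lower (20.5%) and 2, Ush1g and Espn, higher (18.6%). The stricter call was met by 9 lower genes (2.11% of all genes) and 0 higher genes (3.67%), and the median LFC was -0.65 against -0.027 over all genes. The groups did not overlap for 16 of the 33 genes (32.8% of all genes). The LFCs of IP over input in control and DTR pools had the same sign for 30 of 33 genes (Pearson's r 0.894 and Spearman's rho 0.863 across genes, which are not independent replicates).

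Lhfpl5 read 57.3, 49.8, 52.9 and 51.1 CPM in DTR input and 12.2, 8.58, 10.2 and 11.3 in DTR IP (LFC -2.29, SE 0.15, adjusted p = 2.3e-09, limma). Strc read 8.12, 7.26, 7.33 and 15.4 CPM in DTR input and 2.09, 1.82, 0.994 and 4.18 in DTR IP (LFC -1.93, SE 0.33, adjusted p = 1.6e-04, limma). Ptprq read 19.2, 19.3, 28.4 and 36.3 CPM in DTR input and 8.71, 8.86, 7.26 and 6.15 in DTR IP (LFC -1.65, SE 0.20, adjusted p = 4.8e-06, limma). These 3 genes kept apart from input in every IP library, although Strc in replicate 4 stood above the other replicates in both preparations. Among the myosins, Myo3b read 9.99, 8.33, 7.48 and 13.1 CPM in DTR input and 4.63, 3.20, 1.95 and 2.14 in DTR IP (LFC -1.60, SE 0.22, adjusted p = 1.5e-05, limma). Myo3a read 4.11, 3.75, 4.88 and 5.85 CPM in DTR input and 1.64, 1.17, 1.09 and 1.09 in DTR IP (LFC -1.57, SE 0.26, adjusted p = 1.2e-04, limma). Neither class III myosin overlapped between groups. Cib2, Fscn2 and Grxcr2 were lower by LFCs of -0.98, -1.31 and -1.35 (SE 0.14, 0.16 and 0.21, adjusted p 2.5e-05, 6.1e-06 and 4.9e-05, limma), and Eps8 and Clrn1 by -0.68 and -0.74 (SE 0.13 and 0.21, adjusted p 5.2e-04 and 0.0099, limma).

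Smpx and Tmprss3 had the widest gap between their LFCs in control and DTR pools, for which the test is given with the interaction. Smpx read 47.6, 47.5, 61.9 and 45.8 CPM in DTR input and 16.2, 17.1, 18.3 and 19.9 in DTR IP, 29.5% to 43.5% of input over the pools (LFC -1.51, SE 0.16, adjusted p = 6.9e-07, limma). In control pools this share was 60.4% to 84.6%. Tmprss3 read 82.8, 64.0, 72.0 and 92.4 CPM in DTR input and 41.3, 28.8, 30.8 and 36.1 in DTR IP, 39.1% to 49.9% of input (LFC -1.20, SE 0.13, adjusted p = 1.4e-06, limma). In control pools its share was 73.4% to 89.7%. The ranges of the pools did not overlap for either gene, but both genes were chosen for their wide gap.

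Ush1g read 0.975, 1.19, 1.51 and 3.05 CPM in DTR input and 2.83, 4.91, 4.24 and 5.59 in DTR IP (LFC 1.25, SE 0.28, adjusted p = 0.0017, limma). It was higher in IP in each of the 4 pools, with an overlap between replicate 4 of the input and replicate 1 of the IP. Espn read 56.0, 55.5, 56.4 and 79.1 CPM in DTR input and 70.2, 68.1, 93 and 90.8 in DTR IP (LFC 0.38, SE 0.15, adjusted p = 0.0499, limma). The Espn call was lost under 4 of the other settings and without DTR input replicate 1, 2 or 3 or DTR IP replicate 3 or 4 (adjusted p 0.10 to 0.15 without a library). The calls of Tmc1 (LFC -0.69, adjusted p = 0.047) and Tmc2 (LFC -0.65, adjusted p = 0.022) were likewise lost without DTR input replicate 4 or DTR IP replicate 4, and without 4 further libraries for Tmc1 (DTR input replicates 2 and 3, DTR IP replicates 1 and 2) and 2 for Tmc2 (DTR input replicate 1, DTR IP replicate 3), at adjusted p 0.052 to 0.15. Both were also lost with no filter on low values (adjusted p 0.11 and 0.066), which tested more genes. With the pool as a block, Grxcr1 (LFC 0.45, adjusted p = 0.019, against 0.075 without it) and Triobp (LFC 0.28, adjusted p = 0.042, against 0.053) were higher as well. Hair cell identity genes moved here too, with 12 of 16 lower and 2 higher, and summed levels of 720 to 963 CPM in DTR input and 251 to 349 CPM in DTR IP.

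**Figure D3:**
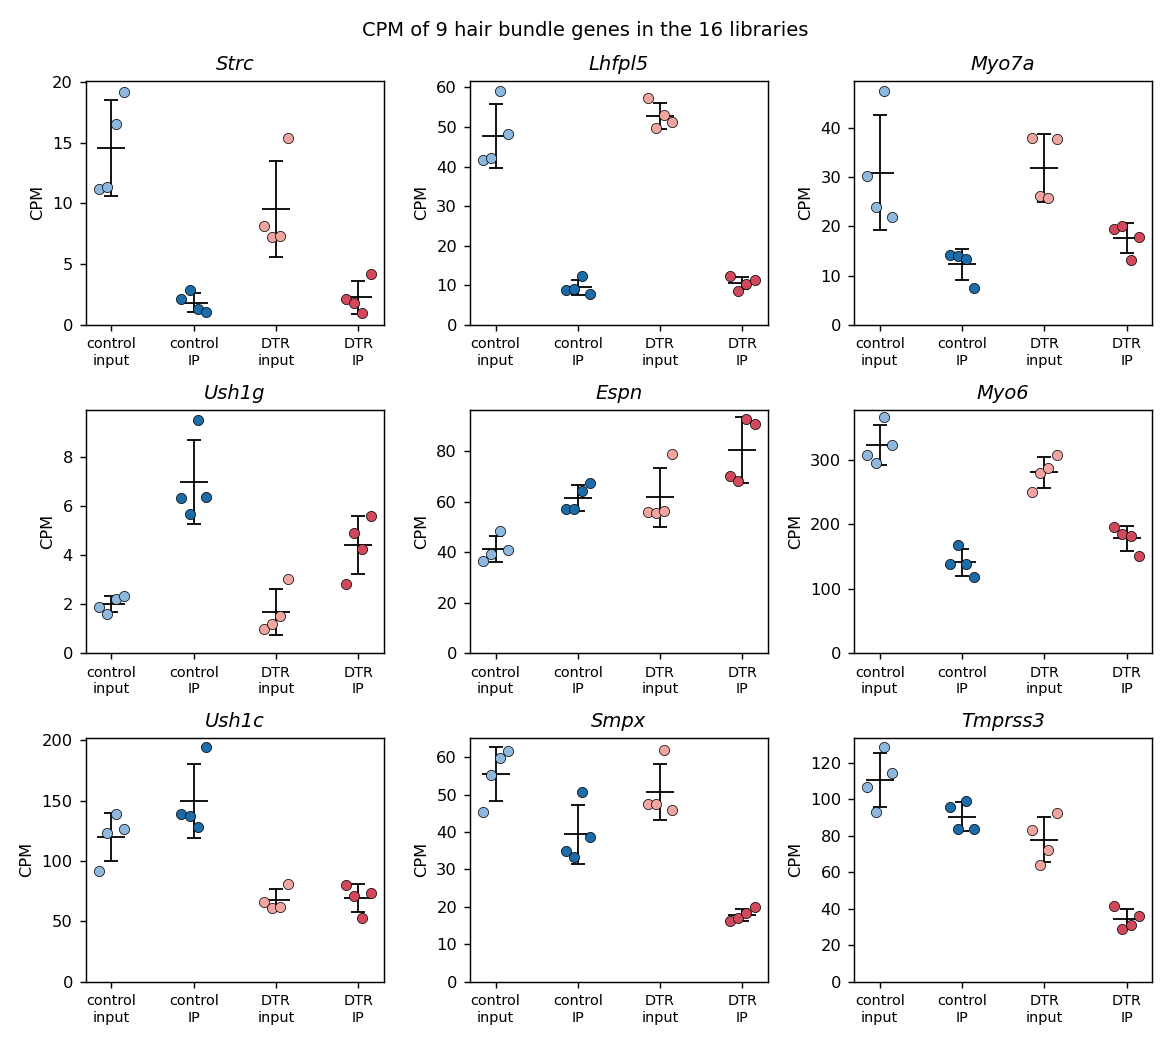
CPM of 9 of the genes in the 16 libraries, as points for the 4 replicates of each group with the mean and SD, on axes that start at 0. Lhfpl5 and Strc are low in IP in both genotypes, Ush1g is high in IP, and Smpx and Tmprss3 are lowest in DTR IP, at 16.2 to 19.9 and 28.8 to 41.3 CPM.

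DTR IP was compared with control IP to ask how these genes differed in ribosome IP after damage, again without a measure of RNA from cells without Cre. Tmprss3, Smpx and Ush1c fell to 37.9%, 45.4% and 46.2% of the control IP mean, and Pls1 and Eps8 to 63.7% and 67.9%. The myosin genes Myo6, Myo15 and Myo1h were called higher, at 127%, 176% and 168% of the control IP mean, and each of these calls was lost without several libraries. In all, 8 of 33 genes were called (24.2%, beside 15.7% of all genes), 5 lower (7.3% of all genes) and 3 higher (8.44%). The stricter call was met by the 3 genes named first (1.34% of all genes) and by 0 higher genes (1.12%). The median LFC was 0.0091 against -0.0043 over all genes, so the 33 genes did not move together. The groups did not overlap for 9 of the 33 genes (17% of all genes). With edgeR on recovered reads, 6 genes were called, 5 lower and 1 higher.

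Tmprss3 read 95.5, 83.5, 98.9 and 83.9 CPM in control IP and 41.3, 28.8, 30.8 and 36.1 in DTR IP (LFC -1.44, SE 0.13, adjusted p = 3.4e-07, limma). Smpx read 34.9, 33.3, 50.7 and 38.6 CPM in control IP and 16.2, 17.1, 18.3 and 19.9 in DTR IP (LFC -1.13, SE 0.16, adjusted p = 4.1e-05, limma). Ush1c read 139, 137, 128 and 195 CPM in control IP and 79.8, 71.0, 52.8 and 73.1 in DTR IP (LFC -1.12, SE 0.16, adjusted p = 6.2e-05, limma). For these 3 genes every DTR IP library was below every control IP library, by a separation of 2.09, 1.58 and 1.65. Pls1 read 289, 340, 311 and 274 CPM in control IP and 228, 255, 137 and 155 in DTR IP (LFC -0.68, SE 0.16, adjusted p = 0.0067, limma). Eps8 read 30.9, 41.5, 29.9 and 26.6 CPM in control IP and 24.0, 24.0, 21.4 and 18.2 in DTR IP (LFC -0.57, SE 0.13, adjusted p = 0.0055, limma). Neither overlapped, and Pls1 replicates 3 and 4 of DTR IP lay below the other 2. The calls of these 5 genes held under every alternative setting and without any library.

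Myo15 read 4.81, 7.60, 5.53 and 4.12 CPM in control IP and 10.4, 8.69, 9.38 and 10.4 in DTR IP (LFC 0.68, SE 0.23, adjusted p = 0.049, limma). Myo1h read 3.56, 5.27, 4.11 and 3.96 CPM in control IP and 7.65, 5.91, 8.12 and 6.64 in DTR IP (LFC 0.56, SE 0.19, adjusted p = 0.049, limma). Both groups were apart, but both genes stood at the threshold. Myo6 read 139, 168, 138 and 118 CPM in control IP and 196, 186, 182 and 151 in DTR IP, with an overlap between control replicate 2 and DTR replicate 4 (LFC 0.37, SE 0.11, adjusted p = 0.027, limma). The calls of all 3 were lost without control IP replicate 1, 3 or 4 or DTR IP replicate 1 or 3. They were also lost without DTR IP replicate 2 for Myo6 and Myo15, without DTR IP replicate 4 for Myo15 and Myo1h, and without control IP replicate 2 for Myo1h (adjusted p 0.051 to 0.15 over these). With the replicate number as a block, 4 further genes were called, Ush1g lower (LFC -0.72, adjusted p = 0.022, against 0.095 without it) and Espn, Rdx and Atp2b2 higher (LFC 0.36, 0.29 and 0.32, adjusted p 0.016, 0.040 and 0.038, against 0.11, 0.090 and 0.088). Without the block and with all libraries, none of the 5 mechanotransduction channel genes and none of the 4 bundle surface genes was called. Tmc2 was called lower without DTR IP replicate 1 (adjusted p = 0.041) and Atp2b2 higher without control IP replicate 2 (adjusted p = 0.036, limma). Lhfpl5 stood at 9.43 ± 1.93 CPM in control IP and 10.6 ± 1.57 in DTR IP, and Ptprq at 5.88 ± 1.23 and 7.74 ± 1.29.

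Marker lists moved in the same comparison. Of 7 Deiters and pillar cell genes, the Lgr5+ cells and their neighbours, 5 were lower and 0 higher in DTR IP, with summed levels of 883 to 1170 CPM in control IP and 393 to 547 in DTR IP and with 0 of the 7 genes at 0 in any group. Of 5 inner phalangeal and border cell genes 3 were lower, with sums of 3853 to 4649 and 2830 to 3285 CPM. Of 16 hair cell identity genes 2 were lower (Atoh1 among them) and 2 higher (Otof and Slc17a8), with sums of 213 to 298 and 251 to 349 CPM that overlapped. Of 6 macrophage genes 5 and of 6 mesenchymal genes 4 were higher. The part of these lists in the changes of Tmprss3, Smpx, Ush1c and the other genes was not tested.

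DTR input was compared with control input to ask what differed in the whole tissue after damage. Of 33 genes, 6 were called (12.4% of all genes), with Ush1c, Tmc2, Eps8 and Tmprss3 lower (5.21%) and Myo15 and Espn higher (7.17%). None met the stricter call (1% of all genes lower and 1.34% higher), and the median LFC was -0.085 against -0.021 over all genes. The groups did not overlap for 7 of the 33 genes (19.3% of all genes).

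Ush1c read 91.9, 123, 139 and 127 CPM in control input and 65.9, 61.3, 61.9 and 80.6 in DTR input (LFC -0.81, SE 0.16, adjusted p = 0.0018, limma). Tmc2 read 2.91, 2.42, 3.97 and 2.87 CPM in control input and 2.10, 1.37, 1.43 and 1.83 in DTR input (LFC -0.79, SE 0.22, adjusted p = 0.020, limma). Eps8 read 46.3, 50.7, 53.1 and 48.5 CPM in control input and 33.0, 43.0, 28.4 and 34.2 in DTR input (LFC -0.54, SE 0.13, adjusted p = 0.0099, limma). No DTR library of these 3 genes reached the control range. Tmprss3 read 107, 93.1, 129 and 114 CPM in control input and 82.8, 64.0, 72.0 and 92.4 in DTR input (LFC -0.50, SE 0.13, adjusted p = 0.017, limma), where the highest DTR library came within 1 CPM of the lowest control library. Myo15 read 2.34, 4.73, 5.78 and 6.13 CPM in control input and 9.72, 10.3, 6.92 and 11.1 in DTR input (LFC 0.95, SE 0.23, adjusted p = 0.0085, limma). Espn read 36.5, 39.2, 48.4 and 40.8 CPM in control input and 56.0, 55.5, 56.4 and 79.1 in DTR input (LFC 0.55, SE 0.15, adjusted p = 0.017, limma). Both of these rose with no overlap between groups.

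The calls of Ush1c, Eps8 and Myo15 in input held under every alternative setting and without any library. The Tmc2 call was lost without control input replicate 3 or DTR input replicate 2 or 3 (adjusted p 0.053 to 0.082), with no filter on low values (0.061) and with edgeR (0.066), the Tmprss3 call without control input replicate 3 or DTR input replicate 2 (0.069 to 0.073), and the Espn call without control input replicate 1 or 2 or DTR input replicate 4 (0.051 to 0.061). Of 7 Deiters and pillar cell genes 6 were lower in DTR input, with sums of 908 to 1114 CPM in control and 417 to 471 CPM in DTR libraries. Of 16 hair cell identity genes 2, Atoh1 among them, were lower and 0 higher, with sums of 689 to 866 and 720 to 963 CPM. Of 5 Schwann cell genes 3 were lower, with sums of 2168 to 3867 CPM in control and 1131 to 1789 in DTR libraries, and of 5 inner phalangeal and border cell genes 2 were lower, with sums of 4070 to 4505 and 3537 to 4191 CPM. Of 6 macrophage genes 5 were higher, with sums of 88.9 to 93.1 and 123 to 200 CPM. The part of these lists in these changes was not tested.

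**Figure D4:**
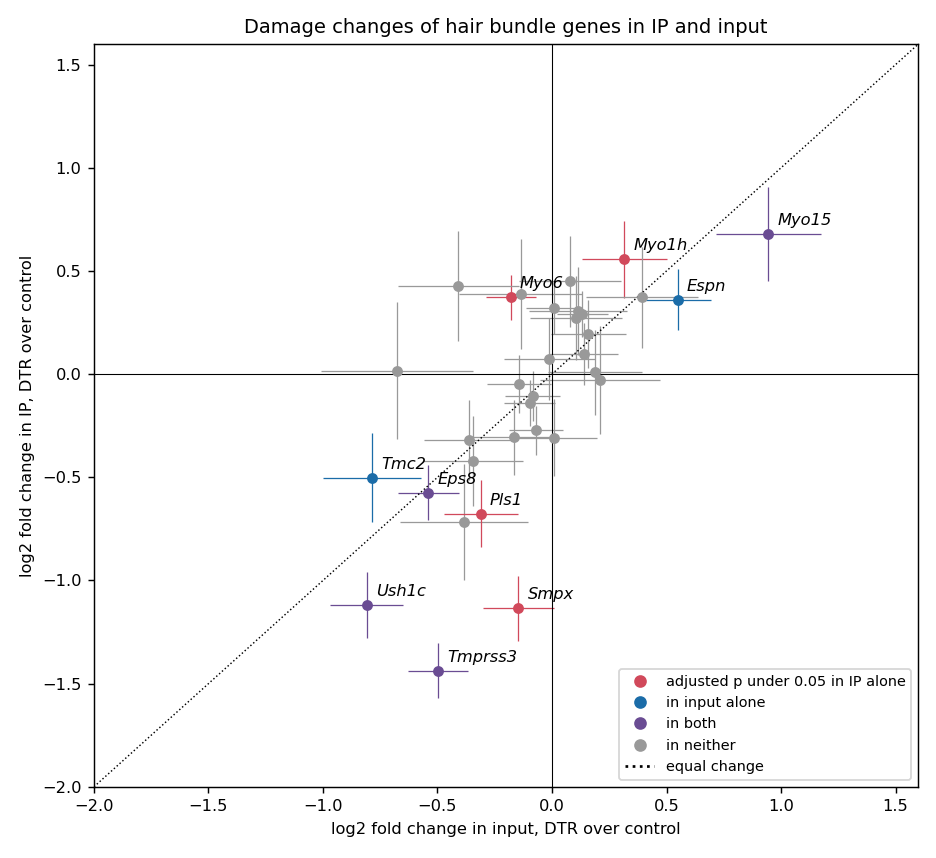
LFC of DTR over control in input (horizontal axis) and in IP (vertical axis) for the 33 genes, with SE bars (4 libraries against 4), coloured by where the adjusted p was under 0.05. Ush1c, Tmprss3, Eps8 and Myo15 were called in both, Smpx lies farthest below the line of equal change with Tmprss3, and Myo6 lies above 0 in IP and below 0 in input.

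The difference between the damage change in IP and in input (the interaction) was called for 0 of the 33 genes with limma (0.0118% of all genes), with 4 of the 33 at an unadjusted p under 0.05 (5.12% of all genes). These were Tmprss3, Smpx, Myo6 and Xirp2. For Tmprss3 the difference was -0.94 (SE 0.19, adjusted p = 0.12), for Smpx -0.99 (SE 0.22, adjusted p = 0.21), for Myo6 0.55 (SE 0.16, adjusted p = 0.44), and for Xirp2 0.84 (SE 0.37, adjusted p = 0.93, limma). With the pool as a block, Tmprss3 (-0.94, adjusted p = 0.0098) and Smpx (-0.99, adjusted p = 0.028) were called (0.235% of all genes, limma). DESeq2 on recovered reads called the same 2 genes (-0.93 with adjusted p = 0.0054, and -1.05 with adjusted p = 0.0046) among 0.288% of all genes, and edgeR called 0. Smpx in input stood at 55.6 ± 7.26 CPM in control and 50.7 ± 7.49 in DTR cochleae, values that overlapped, while its IP values did not. Across the 33 genes the damage LFCs in IP and in input had the same sign for 26 (Pearson's r 0.666, Spearman's rho 0.633), in libraries that came from the same pools.

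A further list of hair bundle and transduction genes outside the 33 gave counts of the same kind. Of 21 tested, 12 were lower (20.7% of all genes) and 2, Vezt and Ptprd, higher (19.3%) in control IP against input (median LFC -0.52). In DTR IP against input 10 were lower (20.5% of all genes) and 2 higher (18.6%), with a median of -0.50. Espnl, Lcp1, Kcna10 and Elmod1, which encode an espin-like protein, plastin 2, a potassium channel and an ELMO-domain protein, were the most depleted, with LFCs of -2.22, -1.93, -1.90 and -1.32 in control pools. Of 6 macrophage genes, 6 were lower in control IP too. The part of macrophages and other cell types in the levels of this list was not tested. The tip-link cadherin gene Cdh23 was lower (LFC -1, adjusted p = 0.0012, limma), while its partner Pcdh15 was not called, with 6.12 to 8.93 CPM in control input and 7.09 to 10.6 in control IP. After damage, 2 of the 21 were higher in IP (9.52%, beside 8.44% of all genes). In input 1 was lower (4.76%, beside 5.21% of all genes), namely Espnl (LFC -0.59, adjusted p = 0.013, limma).

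The SMART-Seq v4 kit does not mark strand, and the strand setting of the counting is not given in the sources used here. Reads on bases that neighbouring genes share could therefore not be told apart by strand. Some of the 33 genes share exon bases with a neighbour in GENCODE M21. These are Ush1c with Gm9860, Strc with Ckmt1, Cib2 with Sh2d7, Tmie with Als2cl, Myo1h with Kctd10, Eps8l2 with B230206H07Rik, Xirp2 with Gm13601 and Triobp with Gm10865 on opposite strands, and Myo3b with Gm13631 on the same strand. The genes with the largest changes after damage lie at chr17:31179265-31198977 (Tmprss3, minus strand), chrX:157698910-157752591 (Smpx, plus strand) and chr7:46195350-46238503 (Ush1c, minus strand) on GRCm38.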

How the data were processed

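The 16 libraries (4 replicates of input and IP in each genotype) were made with the SMART-Seq v4 kit, which does not mark strand. The authors aligned reads to GRCm38 with HISAT2 and counted them on genes with HTSeq according to the methods, while the submitters' processing notes name TopHat. The authors then deposited these counts as CPM. The deposited CPM were checked for this unit, and 100% of values above 0 were whole reads (tolerance 0.02), so counts were recovered for edgeR and DESeq2. Of 50316 genes listed, 2587 were NA in every library and 47729 had values. Depth was 28089836 to 41966310 counted reads.

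CPM were quantile normalized, 0.5 was added and log2 taken. The filter kept genes that reached 0.5 CPM in every replicate of some group, which left 16994. A model of 4 group means over all libraries was fitted with limma 3.58.1 (R 4.3.3, trended variance), and p-values were adjusted by Benjamini and Hochberg's method. The alternatives were CPM without quantile normalization, median centring, pseudocounts of 0.1 and 1, no filter, at least 2 CPM, only the compared groups, a block (the pool for IP against input and the interaction, the replicate number for DTR against control), edgeR 4.0.16 (quasi-likelihood), DESeq2 1.42.0 and each library left out. The procedure was first tested on simulated data with 200 changed genes. No libraries held identical values.

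IP and input of a pool share a homogenate and a replicate number. Deviations of same-numbered libraries from their group means correlated at 0.288 or more within each genotype, and at 0.291 or more between genotypes. The numbers were taken as pairs in the block setting only. The main fit of group means did not use this pairing. In the deposited columns the last replicate is numbered 6.

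The 33 genes and all lists were chosen with earlier results of these data known. Full statistics go to up to 2 called genes with the largest LFC in each direction per role and comparison, to every gene called against the main direction and to every gene called in the interaction. Further genes got values where a setting changed their call, and these, the motifs searched and the genes named from the further list were chosen after their values were seen. Positions, exon lengths and overlaps came from GENCODE M21, and promoters from RefSeq on GRCm38.p6. Of the hair cell identity list, 1 gene enters the counts and sums but is not reported here.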

Additional observations from a re-analysis of the deposited data

Results flagged for a closer look

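Of 132 groups of 4 libraries examined (33 genes in 4 groups), 11 held a library far from the other 3 by Dixon's criterion, and chance alone gives about 1 in 20. In control IP these were Myo7a in replicate 4 (lowest, 7.49 CPM), Ush1c in replicate 4 (highest, 195 CPM), Adgrv1 in replicate 1 (lowest, 5.32 CPM) and Grxcr2 in replicate 3 (highest, 14.5 CPM). In control input it was Stard10 in replicate 3 (highest, 101 CPM). In DTR input they were Espn (highest, 79.1 CPM) and Strc (highest, 15.4 CPM), both in replicate 4, and Smpx in replicate 3 (highest, 61.9 CPM). In DTR IP they were Myo3a (highest, 1.64 CPM) and Tmc2 (highest, 1.57 CPM), both in replicate 1, and Rdx in replicate 4 (lowest, 187 CPM).

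Myo6 had fold changes of opposite sign after damage in the 2 preparations. The rise in IP was called but lost without several libraries, and the fall in input was not called. By replicate number, Myo6 was lower in DTR than in control in 4 of 4 input pairs and higher in 4 of 4 IP pairs. The fitted difference of the 2 changes was 0.55 on the log2 scale and was not called (adjusted p = 0.44, limma).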

How the results depend on the processing

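Of 59 calls over the 4 comparisons, 47 held under every alternative and without any library, 7 were lost under at least 1 alternative setting, 12 without at least 1 library, and 0 reversed. In DTR IP against control IP, the number of genes called went from 8 to 5 with no filter on low values. Leaving out 1 library gave 5 to 8 genes in DTR IP against control IP (5 without control IP replicate 1, 3 or 4 or DTR IP replicate 3), 22 to 25 in control IP against input, 18 to 20 in DTR IP against input, 4 to 6 in DTR input against control input, and 0 in the interaction. In the interaction, 2 genes were called with the replicate block and 2 with DESeq2, against 0 with limma and 0 with edgeR. Across the other comparisons the replicate block gave 27 genes for control IP against input, 23 for DTR IP against input, 12 for DTR IP against control IP and 6 for DTR input against control input, and it changed no other call than those given with their values above. Beside no filter, the Myo6 rise in IP was lost with median centring (adjusted p = 0.067), only the compared groups (0.082), edgeR (0.13) and DESeq2 (0.10), that of Myo15 with a pseudocount of 0.1 (0.054) and edgeR (0.053), and that of Myo1h with a pseudocount of 1 (0.052) and only the compared groups (0.077). Leaving out 1 library also added calls, of Grxcr1 in control IP against input (without control IP replicate 4), Triobp in DTR IP against input (without DTR input replicate 4 or DTR IP replicate 3), and Atp2b2, Rdx, Stard10 and Tmc2 in DTR IP against control IP (without control IP replicate 2, DTR IP replicate 4, DTR IP replicate 4 and DTR IP replicate 1). The causes were not tested. Depth limits several genes, among them Myo3a, Tmc2 and Strc, which rested on 18 to 127 reads in each IP library. Xirp2 rested on 43 to 113 reads in control IP. Depth in input also limits Ush1g, the gene most raised in IP. It rested on 57 to 92 reads in control input and 33 to 100 reads in DTR input.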

Other observations

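Slc17a8, which encodes the glutamate transporter of inner hair cell synapses, read 1.17, 1.72, 0.970 and 0.360 CPM in control IP and 4.21, 2.81, 5.37 and 2.96 CPM in DTR IP, with no overlap (LFC 1.42, adjusted p = 6.4e-04, limma). Otof, the exocytosis gene of hair cell synapses, read 21.1, 27.5, 19.8 and 17.0 CPM in control IP and 39.6, 23.5, 36.6 and 40.8 in DTR IP (LFC 0.66, adjusted p = 0.036, limma). Its groups overlapped, between replicate 2 of control IP and replicate 2 of DTR IP. Both genes were chosen after their values were seen, from 16 hair cell identity genes. The 16 genes had a median LFC of -0.026 in DTR IP against control IP. Of them, 9 had a negative LFC, 2 were called lower and 2 higher. Slc17a8 rested on 11 to 59 reads in control IP. In input, Slc17a8 stood at 1.52 to 2.76 CPM in control and 2.62 to 4.96 in DTR cochleae, and was not called. The interaction was called for 0 of the 16 genes.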
